A study of Mus musculus with 9 samples.

Results

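The genes described here make up the machinery by which a neuron stores neurotransmitter in synaptic vesicles and releases it by exocytosis, measured in the brains of 5xFAD and wild-type mice. They were chosen by symbol from the probe sets of the array that name a single gene: the synaptotagmins, synapsins 1 to 3, syntaxins, syntaxin-binding proteins, VAMPs, Snap25, Snap91, complexins, Rab3 proteins, Unc13 and Rims proteins, Sv2 proteins, synaptophysin, synaptogyrins, the glutamate transporter Slc17a7 and Nsf. This gave 74 of the 19938 genes tested. Another 6 symbols of the same families, Vamp2 among them, were not analysed here. Total RNA of 9 mice was measured, 1 array a mouse, in 3 groups of 3. The first group was B6SJLF1/J wild type given PBS, the second was 5xFAD given PBS (called vehicle below), and the third was 5xFAD given human amylin, a pancreatic peptide hormone. All mice were about 5 months old and had an intraperitoneal injection every day for 10 weeks. The 5xFAD line carries human transgenes with familial Alzheimer mutations, mutant APP among them, under the Thy1 promoter, which is active in neurons, and it forms amyloid plaques. Values are log2 intensities, on which a step of 1 is a doubling, and a level is read only against the same gene on another array.

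In a nerve terminal, vesicles are filled by transporters, tethered by synapsins, docked and primed by Rab3, Rims and Unc13 proteins, and fused by the SNARE proteins of the vesicle (VAMPs) and of the plasma membrane (syntaxin and Snap25). Complexins clamp the assembled SNAREs and synaptotagmins trigger fusion when calcium enters. Nsf then takes the SNAREs apart and the membrane is taken up again. Each step has several gene copies, which differ between brain regions and between neurons and other cells.

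In vehicle-treated 5xFAD mice 15 of the 74 genes had lower levels than in wild type, 3 had higher levels, and 56 did not pass the test. A gene was called changed at a limma p under 0.05 after Benjamini-Hochberg adjustment over all genes. Over all genes tested, 4.92% were called lower and 3.66% higher. The median log2 difference was -0.05 for the vesicle genes and -0.01 for all genes. At an unadjusted p under 0.05 there were 30 of the 74, against 21.2% of all genes. With the dimmer 50% of all genes left out, 18 of the 64 remaining vesicle genes were lower and 3 higher, against 11.6% and 6.37% of all remaining genes. The genes that fell encode synapsins, vesicle membrane proteins, fusion and docking factors and some calcium sensors. None of the 14 syntaxins and none of the 6 syntaxin-binding proteins passed.

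**Figure D1:**
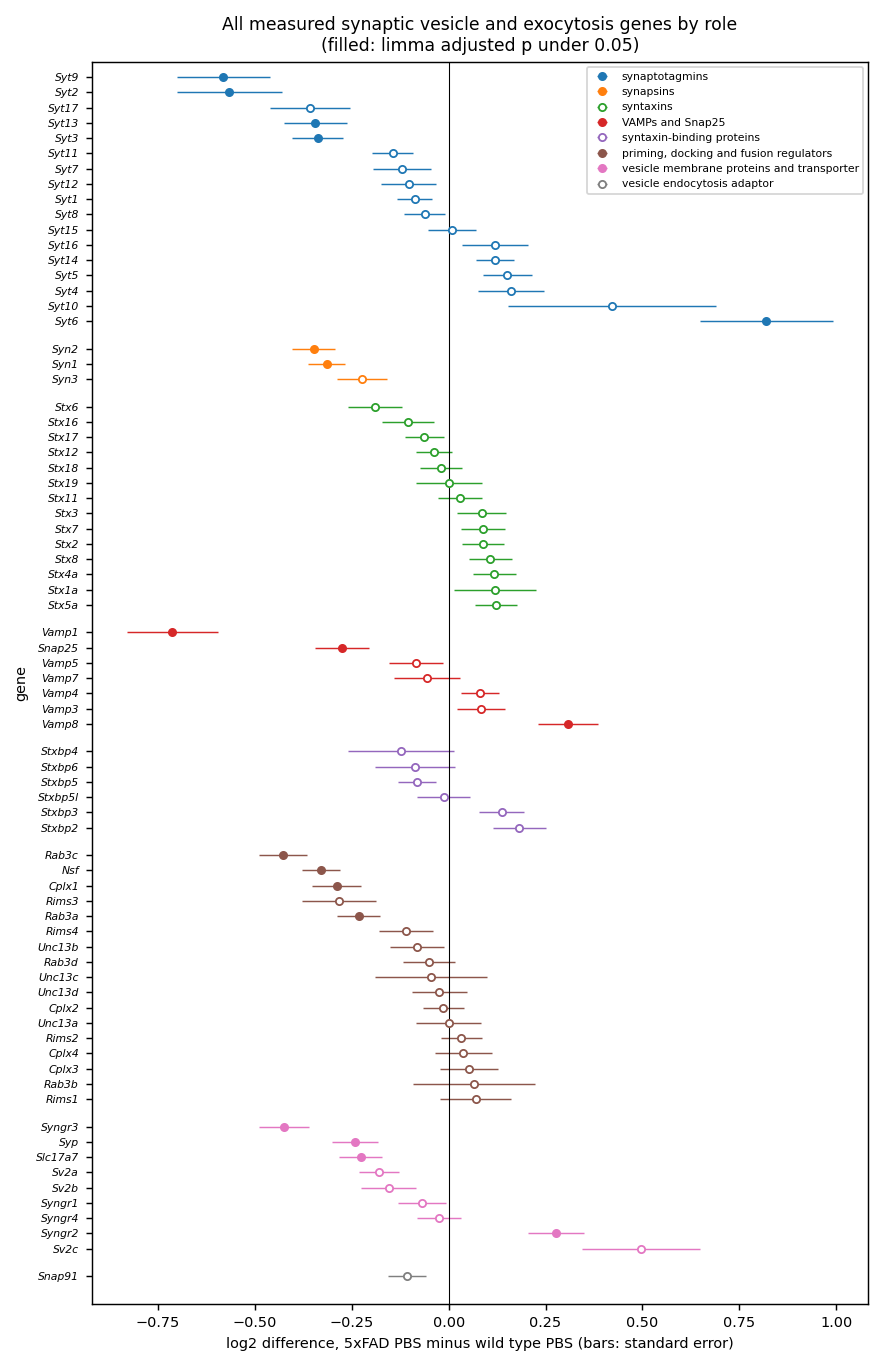
The log2 difference of vehicle-treated 5xFAD minus wild-type mice (x axis) of each of the 74 genes (y axis), grouped by role, with its standard error as a bar and filled points for an adjusted p under 0.05. The 3 synapsins all lie below 0, the 14 syntaxins lie between -0.19 and 0.12, and the synaptotagmins spread from -0.58 to 0.82.

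The count of 18 called genes fell when any 1 wild-type or vehicle array was left out, which also left fewer mice for the test. It was 7, 9 and 8 without wild-type replicate 1, 2 and 3, and 10, 12 and 8 without vehicle replicate 1, 2 and 3. The share of all genes called, in both directions together, fell as well, from 8.58% with all arrays. It was 4.33%, 5.65%, 5.00%, 6.55%, 5.74% and 4.86% in the same order. Under each of 19 alternative settings 5 of the 18 passed, namely Syn1, Syn2, Rab3c, Nsf and Syngr3. With all arrays kept, repeating the quantile normalization ended the calls of Cplx1, Rab3a, Slc17a7, Snap25 and Vamp8 (adjusted p from 0.0534 to 0.0909). Fitting only the groups compared ended those of Slc17a7, Syt2 and Syt13 (0.0506 to 0.079), and median centring that of Snap25 (0.0501).

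Markers of brain regions differed on the same arrays. All 11 measured striatal markers were higher in vehicle-treated 5xFAD mice, with array means of 9.42 to 9.66 against 7.93 to 8.17 in wild type. All 8 hippocampal markers were lower (5.13 to 5.28 against 6.26 to 6.38), and so were 11 of 12 thalamic markers (7.24 to 7.38 against 8.11 to 8.37). None of 6 olfactory bulb markers passed, but their mean ran from 6.13 to 7.64 over the vehicle arrays, against 5.79 to 5.99 in wild type. Of 12 general neuronal markers 5 were lower and 0 higher (10.02 to 10.06 against 10.21 to 10.28). Inhibitory neuron markers went the other way without a call in 7 (9.45 to 9.53 against 9.34 to 9.42). Of 10 markers of cortical excitatory neurons 2 were lower (8.55 to 8.80 against 8.71 to 8.82); the labels name brain tissue and the series title the cortex. Of 14 microglial markers 13 were higher (7.96 to 8.59 against 6.62 to 6.64). Of 9 astrocyte markers 1 was higher and 2 lower (9.83 to 10.06 against 9.66 to 9.83), and of 7 endothelial and pericyte markers 1 was higher (7.28 to 7.42 against 7.02 to 7.16). Of 9 oligodendrocyte markers 3 were lower (9.13 to 9.31 against 9.32 to 9.51). In bulk tissue, fewer cells of a type and less RNA in each cell cannot be told apart. The ranges of both 5xFAD groups, for these regional lists and for most of the cell type lists, were apart from wild type, so their part in the results and that of the genotype cannot be told apart. A fit that also took in the olfactory bulb marker mean of each array, called the olfactory-adjusted fit below, called 9 vesicle genes, 6 lower and 3 higher, and 4.87% of all genes. In that fit the calls of Cplx1, Rab3a, Slc17a7, Snap25, Syp, Syt2, Syt3, Syt6, Syt9, Syt13, Vamp1 and Vamp8 ended (adjusted p from 0.0604 for Vamp1 to 0.235 for Syt2). Cplx1 (-0.33 log2, from -0.29), Rab3a (-0.27, from -0.23), Snap25 (-0.30, from -0.28) and Vamp8 (0.37, from 0.31) differed by more there. The others named differed by less, such as Syt6 (0.42, from 0.82). The marker mean correlated with genotype at 0.74 over the 9 arrays, which makes a genotype difference harder to call in that fit. Syn3 (-0.33 log2, adjusted p = 0.0308) and Syt4 (0.34, 0.034) were among the genes that gained a call there.

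**Figure D2:**
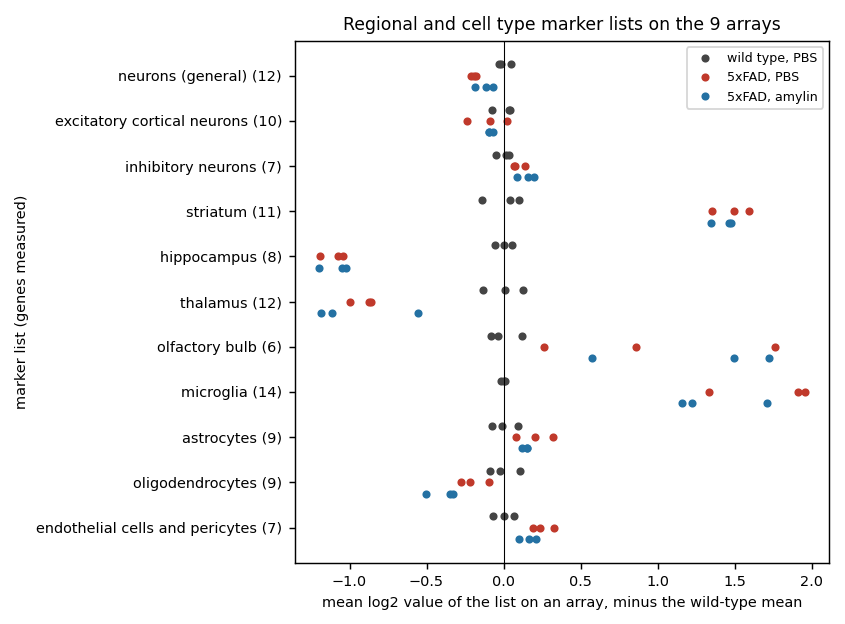
Mean log2 value of each marker list on each of the 9 arrays, minus the wild-type mean of the list (x axis), with the number of genes measured beside each list name (y axis). Both 5xFAD groups lie apart from wild type in every list but those of excitatory cortical neurons and astrocytes, by more in the striatal, hippocampal, thalamic and microglial lists than in the other cell type lists, and the olfactory bulb list spreads widely among the 5xFAD arrays.

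The synapsins are phosphoproteins that tether vesicles to each other and to actin, and in all 3 the vehicle arrays lay below the wild-type arrays. Syn1 read 10.93, 10.90 and 10.99 in wild type, 10.63, 10.65 and 10.58 under vehicle and 10.76, 10.79 and 10.75 under amylin. The 3 groups of Syn1 values did not overlap, with wild type highest and vehicle lowest. Vehicle differed from wild type by -0.31 ± 0.05 (SE) log2, or 1.24-fold lower (limma adjusted p = 0.00366). Syn2, the closest relative of Syn1 in the terminal, read 10.98, 10.96 and 11.09 in wild type, 10.70, 10.59 and 10.69 under vehicle and 10.81, 10.83 and 10.74 under amylin, in the same order of groups. It fell by 0.35 (SE 0.06, adjusted p = 0.0053). Syn3, which is prominent early in development, was -0.22 ± 0.07 log2 from wild type, which did not pass (adjusted p = 0.0705), with vehicle values of 8.38, 8.22 and 8.26 against 8.52, 8.52 and 8.49 in wild type. It passed in 5 of 19 alternatives, with an adjusted p from 0.0273 (array weights) to 0.0494 (only the 2 groups compared). The fit without amylin replicate 1 was among them (0.03875).

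The promoter of Syn1 is shown because Syn1 is a textbook target of REST, a factor that represses neuronal genes through an element called RE1, and because Syn1 was among the genes called under every setting. The stretch is the 250 bases before the RefSeq start on the minus strand of the GRCm38.p6 build, chrX:20920919-20921168. Capitals mark the left part of RE1 (TTCAGCACC, base 19 to 27 of the stretch) and a cyclic AMP response element (TGACGTCA, base 92 to 99).

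Syn1: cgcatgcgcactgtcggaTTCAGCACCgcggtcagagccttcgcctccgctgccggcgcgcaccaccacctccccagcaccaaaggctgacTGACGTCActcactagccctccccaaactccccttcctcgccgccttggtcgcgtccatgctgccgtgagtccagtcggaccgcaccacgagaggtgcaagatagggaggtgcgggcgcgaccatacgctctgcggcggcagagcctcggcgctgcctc

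RefSeq promoter windows of 300 bases, 250 before and 50 after the start, were found for 58 of the 74 genes and were searched on both strands. The left RE1 part TTCAGCACC was in the windows of 2 of the 58 genes (3.45%), Syn1 and Unc13a, and in those of 0.433% of 27025 genes with windows. The right RE1 part GGACAGC was in 3 of 58 (5.17%, against 7.59% of all genes), namely Stx5a, Syt6 and Unc13a, and so not in the window of Syn1. The element TGACGTCA was in 2 (3.45%, against 2.03%), and TGACG, which lies within it, in 16 (27.6%, against 23.0%). The Egr element GCGTGGGCG was in 1 (1.72%, against 0.707%). In Unc13a, whose product primes vesicles for fusion, both RE1 parts lay 8 to 31 bases after the start, on the strand opposite to the gene, at chr8:71671727-71671750 of GRCm38.p6. Whether their spacing is that of a whole RE1 was not examined.

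Unc13a: GCTGTCCgcgcccccGGTGCTGAA

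The capitals in the Unc13a stretch are the right and the left RE1 part read on that opposite strand. Syn1 fell and Unc13a did not pass: it read 8.93, 9.16 and 9.08 in wild type, 8.995, 9.043 and 9.132 under vehicle and 8.80, 9.06 and 9.03 under amylin. The Unc13a groups overlapped, and the 95% interval of its vehicle difference was -0.19 to 0.19 log2. A match of letters describes the window and is not a bound site.

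Among the vesicle membrane proteins and the transporter, 3 of 9 genes fell and 1 rose. Syngr3, a synaptogyrin of neuronal vesicles, read 9.99, 9.85 and 9.93 in wild type, 9.59, 9.39 and 9.52 under vehicle and 9.55, 9.64 and 9.62 under amylin. Every wild-type value was above every 5xFAD value, and vehicle was lower by 1.34-fold (-0.43 ± 0.06 log2, adjusted p = 0.00411). Syp (synaptophysin), the most used marker protein of synaptic vesicles, read 11.66, 11.62 and 11.65 in wild type against 11.46, 11.41 and 11.34 under vehicle, without overlap. It fell by 0.24 on the log2 scale (SE 0.06, adjusted p = 0.0357). Slc17a7 (VGLUT1), which loads glutamate into vesicles of cortical and hippocampal neurons, read 11.29, 11.40 and 11.47 in wild type against 11.13, 11.20 and 11.14 under vehicle and fell by 0.23 (SE 0.06, adjusted p = 0.0355). Slc17a7 and Syp passed in 10 of the 19 alternatives each. Slc17a7 did not pass without wild-type replicate 2 or 3, amylin replicate 2 or any 1 vehicle replicate (adjusted p from 0.0525 to 0.126). Syp did not pass without any 1 wild-type or vehicle replicate or amylin replicate 3 (0.0502 to 0.121).

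Syngr2, a synaptogyrin found outside neurons as well, moved the other way. It read 7.75, 7.69 and 7.71 in wild type and 7.90, 8.11 and 7.97 under vehicle, so the groups were apart, and it rose by 0.28 ± 0.07 log2 (1.21-fold, adjusted p = 0.0445). It did not pass without any 1 wild-type replicate, vehicle replicate 2 or 3 or amylin replicate 2 (adjusted p from 0.0627 to 0.131). The 3 Sv2 genes encode vesicle glycoproteins related to transporters. Sv2a differed by -0.18 ± 0.05 log2 (adjusted p = 0.0682, passing in 2 of 19 alternatives) and Sv2b by -0.16 ± 0.07 (adjusted p = 0.248). Sv2c, the copy known for its level in the basal ganglia, read 7.65, 7.46 and 7.45 in wild type and 8.31, 7.68 and 8.05 under vehicle. Its difference of 0.50 ± 0.15 did not pass (adjusted p = 0.0816). It passed in 4 of 19 alternatives, among them array weights (adjusted p = 0.0203) and the fit without vehicle replicate 2 (0.66 log2, adjusted p = 0.022). The Sv2c difference was 0.15 in the olfactory-adjusted fit. Thus the Sv2 copies had differences of both signs, and the striatal markers were higher on the arrays where Sv2c read higher. Their part in the Sv2c values was not tested.

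Of the fusion SNAREs of the VAMP and Snap25 group, 2 of 7 fell and 1 rose. Vamp1 (synaptobrevin 1), a vesicle SNARE prominent in the spinal cord and brainstem, read 9.92, 9.73 and 9.53 in wild type, 8.82, 9.24 and 8.97 under vehicle and 9.11, 8.99 and 9.07 under amylin. Wild type lay above both 5xFAD groups on every array, and the vehicle difference of -0.71 ± 0.12 log2 was 1.64-fold (adjusted p = 0.00612). This was the lowest difference of the 74 genes, and it passed in 18 of 19 alternatives, all but the olfactory-adjusted fit (adjusted p = 0.0604). Snap25, the plasma membrane SNARE of neurons, read 12.52, 12.52 and 12.56 in wild type and 12.22, 12.35 and 12.19 under vehicle, again without overlap. It fell by 0.28 (SE 0.07, adjusted p = 0.0431) and passed in 9 of 19 alternatives. It failed without any 1 wild-type replicate, vehicle replicate 1 or 3, or amylin replicate 3 (adjusted p from 0.0544 to 0.14).

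Vamp8 (endobrevin), a SNARE of endosomes and of secretion in non-neuronal cells, read 5.77, 5.69 and 5.79 in wild type against 6.11, 6.07 and 5.99 under vehicle. It rose by 0.31 ± 0.08 log2 (adjusted p = 0.0393), and it failed without any 1 wild-type or vehicle replicate or amylin replicate 3 (0.0566 to 0.125), passing in 8 of 18 alternatives. The microglial markers were higher on the same arrays, and their part in the Vamp8 values was not tested. Vamp3, Vamp4, Vamp5 and Vamp7, which serve other membranes of the cell, differed by -0.08 to 0.08 and did not pass.

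The syntaxins, the SNAREs that anchor at the target membrane, gave no call. Stx1a, the neuronal copy at the plasma membrane, read 9.37, 9.48 and 9.59 in wild type and 9.37, 9.80 and 9.62 under vehicle, so the groups overlapped. Its difference was 0.12 ± 0.11 log2 (adjusted p = 0.615, 95% interval -0.12 to 0.36). At the ends of the family were Stx6, a syntaxin of the trans-Golgi network, with -0.19 ± 0.07 (adjusted p = 0.151), and Stx5a, a syntaxin of the endoplasmic reticulum and Golgi, with 0.12 ± 0.05 (adjusted p = 0.223). The median of the 14 was 0.06, with 9 differences above 0. The syntaxin-binding proteins ranged from -0.12 (Stxbp4) to 0.18 (Stxbp2, adjusted p = 0.156).

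Priming, docking and fusion regulators comprised 17 genes, of which 4 fell and 0 rose. Rab3c, a vesicle GTPase, read 10.43, 10.36 and 10.44 in wild type, 10.05, 9.91 and 9.99 under vehicle and 10.19, 10.14 and 10.01 under amylin. Both 5xFAD groups lay below wild type, and the vehicle difference was -0.43 ± 0.06 log2 (1.34-fold, adjusted p = 0.00316, the smallest among the vesicle genes). Rab3a, the main Rab3 of neurons, read 10.17, 10.11 and 10.15 in wild type and 10.00, 9.91 and 9.83 under vehicle, without overlap, and fell by 0.23 (SE 0.05, adjusted p = 0.0296). It passed in 11 of 19 alternatives and failed without any 1 wild-type replicate or vehicle replicate 2 or 3 (0.0623 to 0.107). Rab3b and Rab3d differed by 0.07 and -0.05 and did not pass. The copies thus did not share a call, but the differences between copies were not tested.

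Nsf, the ATPase that separates used SNARE complexes, read 11.49, 11.53 and 11.58 in wild type, 11.16, 11.24 and 11.22 under vehicle and 11.27, 11.35 and 11.36 under amylin. Its 3 groups were apart, with vehicle lowest, and vehicle was 1.26-fold lower than wild type (-0.33 ± 0.05 log2, adjusted p = 0.00415). Cplx1, a complexin that holds the SNAREs until calcium enters, read 11.05, 10.90 and 10.94 in wild type, 10.66, 10.72 and 10.64 under vehicle and 10.63, 10.54 and 10.73 under amylin. Both 5xFAD groups lay below wild type for Cplx1, and vehicle fell by 0.29 (SE 0.06, adjusted p = 0.0221). Cplx1 failed without wild-type replicate 1 or 3 or vehicle replicate 1 or 3 (0.0629 to 0.0909), and passed in 13 of 19 alternatives.

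Cplx2, the complexin of most excitatory forebrain neurons, read 10.27, 10.23 and 10.33 in wild type and 10.21, 10.23 and 10.35 under vehicle. Those values overlapped, with a difference of -0.01 ± 0.05 log2 (95% interval -0.13 to 0.10) whose sign turned when the quantile normalization was repeated (0.05). None of the Rims and Unc13 genes passed either. Rims1, which links Rab3 to calcium channels, differed by 0.07 ± 0.09 (adjusted p = 0.769) and by -0.02 without vehicle replicate 2. Rims3 differed by -0.28 ± 0.10 (adjusted p = 0.114), and Unc13b, Unc13c and Unc13d by -0.08, -0.05 and -0.02.

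The 17 synaptotagmins, the calcium sensors and their relatives, went in both directions: 4 fell and 1 rose. Syt9, a fast calcium sensor of striatal and limbic terminals, read 8.24, 8.19 and 7.92 in wild type and 7.71, 7.48 and 7.43 under vehicle, and fell by 0.58 (SE 0.12, adjusted p = 0.0169). Syt2, the fast sensor of brainstem, spinal and some inhibitory neurons, read 7.97, 7.69 and 7.57 in wild type, 6.88, 7.30 and 7.35 under vehicle and 7.04, 7.12 and 7.24 under amylin. Wild-type values of Syt2 were above those of both 5xFAD groups, and vehicle fell by 0.57 (SE 0.14, adjusted p = 0.032). Syt3, a high-affinity calcium sensor, read 8.13, 7.96 and 8.17 in wild type against 7.74, 7.77 and 7.74 under vehicle and fell by 0.34 (SE 0.07, adjusted p = 0.0127). Syt13, which lacks calcium-binding residues, read 8.89, 8.86 and 8.83 against 8.34, 8.62 and 8.59 and fell by 0.34 (SE 0.08, adjusted p = 0.0312). In all 4 the vehicle arrays lay below the wild-type arrays.

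Syt6, a synaptotagmin known from the sperm acrosome and also present in brain, had the highest difference of the 74 genes. It read 6.88, 6.96 and 6.95 in wild type, 8.02, 7.55 and 7.68 under vehicle and 8.13, 7.44 and 8.02 under amylin, so every 5xFAD array was above wild type. The vehicle difference was 0.82 ± 0.17 log2, or 1.77-fold (adjusted p = 0.0181), and it was 0.42 in the olfactory-adjusted fit (adjusted p = 0.0799). Syt1, the main calcium sensor of fast release in the forebrain, read 12.04, 12.14 and 12.13 in wild type and 12.01, 12.03 and 12.01 under vehicle. Its difference of -0.09 ± 0.05 did not pass (adjusted p = 0.325, 95% interval -0.19 to 0.02).

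Several of these synaptotagmin calls ended when 1 array was left out, which also left fewer mice for the test. In the fits below that left out an array, Syt9 was -0.52 to -0.55 log2, Syt2 -0.42 to -0.63 and Syt3 -0.30 to -0.32. Syt13 was -0.25 to -0.38 and Syt6 0.68 to 0.86. Syt9 failed without wild-type replicate 1 or 2 or vehicle replicate 2 or 3 (adjusted p from 0.0609 to 0.0781), and Syt2 without wild-type replicate 1 or 2 or vehicle replicate 1 or 2 (0.053 to 0.123). Syt3 failed without wild-type replicate 1 or 3 (0.0587 and 0.0543). Syt13 and Syt6 failed without any 1 wild-type replicate or vehicle replicate 1 or 3 (0.0529 to 0.114). In the olfactory-adjusted fit Syt13 was -0.17 (adjusted p = 0.229) and Syt2 -0.43 (0.235). Syt17, a relative without a membrane-spanning segment, differed by -0.36 ± 0.10 (adjusted p = 0.064). It passed in 5 of 19 alternatives, among them the fits without wild-type replicate 2 (0.0431) or amylin replicate 2 (0.0437) and without the lowest 50% of genes (0.0357).

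Syt10, a calcium sensor known from secretion in olfactory bulb neurons, had the highest standard deviation of the 74 genes in each 5xFAD group. It read 8.23, 8.24 and 8.47 in wild type, 9.34, 8.21 and 8.65 under vehicle and 9.43, 8.65 and 9.23 under amylin. The olfactory bulb list mean on the same arrays was 5.99, 5.79 and 5.84 in wild type, 7.64, 6.13 and 6.73 under vehicle and 7.37, 6.45 and 7.60 under amylin. In both 5xFAD groups replicate 2 was the lowest for Syt10 and for the list. The Syt10 difference of vehicle and wild type was 0.42 ± 0.27 (adjusted p = 0.443), and -0.23 in the olfactory-adjusted fit.

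**Figure D3:**
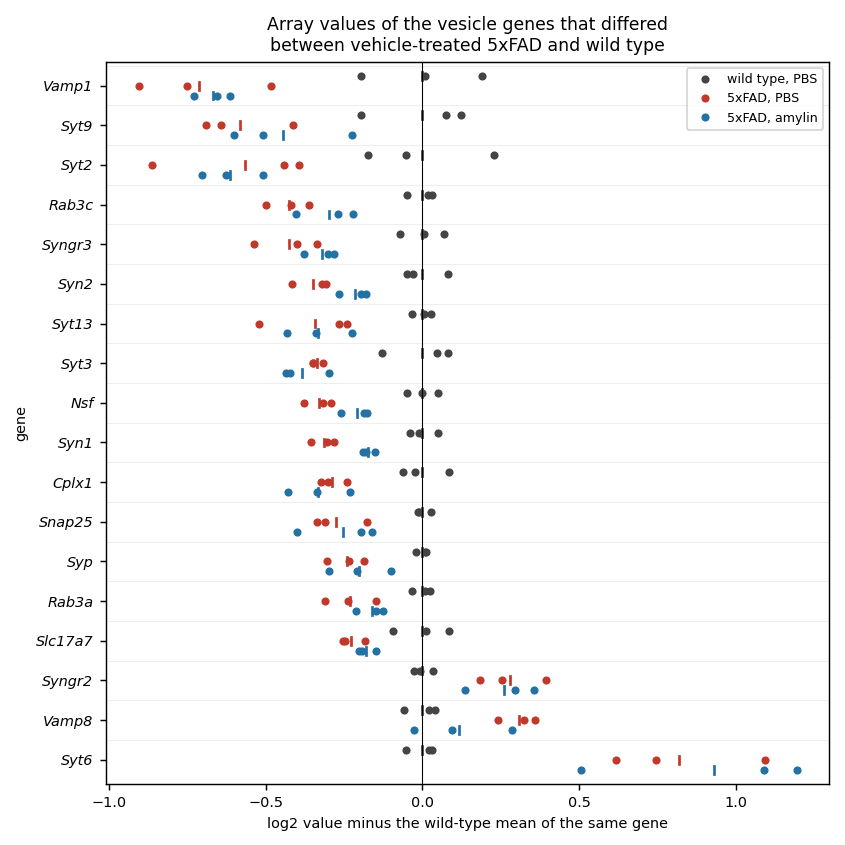
Log2 value on each array minus the wild-type mean of the same gene (x axis) for the 18 genes that differed between vehicle-treated 5xFAD and wild-type mice (y axis), with the group mean as a short vertical line. For each gene the 3 vehicle values lie on 1 side of the 3 wild-type values, and the 15 lower genes range from Slc17a7 (-0.23) to Vamp1 (-0.71).

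Of the 74 genes 25 had all vehicle arrays below all wild-type arrays and 12 had all above. Such a separation was found below wild type in 15.6% and above it in 11.2% of all genes. Snap91 (AP180), an adaptor that gathers clathrin on vesicle membrane, was among the 25 without a call (-0.11 ± 0.05 log2, adjusted p = 0.244).

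Other presynaptic genes outside the chosen families were taken from a list by function. Of 54 measured, 11 fell and 1 rose in vehicle-treated 5xFAD mice, with a median log2 difference of -0.14. Of all genes tested 4.92% fell and 3.66% rose, and with the dimmer 50% left out 11.6% of the remaining genes fell. The counts by group are too small to set against these shares. By group, 4 of 18 endocytosis genes, 2 of 7 release regulators, 2 of 6 other vesicle proteins, 1 of 12 active zone scaffolds, 1 of 6 SNARE and SNAP genes and 1 of 5 vesicular transporters fell. The vesicle protein gene Svop fell by 0.32 (SE 0.04, adjusted p = 0.0023). Dnm1 and Synj1, whose products pinch off and uncoat the retrieved vesicle, fell by 0.34 and 0.31 (adjusted p = 0.0035 and 0.0064). Slc17a6 (VGLUT2), the glutamate transporter of thalamic neurons and also on the thalamic marker list, fell by 1.22 (SE 0.23, adjusted p = 0.0117; 0.0571 without wild-type replicate 1). In the olfactory-adjusted fit the calls of Synj1 (adjusted p = 0.0599) and Slc17a6 (0.101) ended. The gene that rose was Synpr, a synaptophysin relative, by 0.59 ± 0.13 (adjusted p = 0.0219).

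Amylin was compared with vehicle within 5xFAD mice. None of the 74 genes passed with limma, and over all genes 0.00502% were called higher and 0% lower. At an unadjusted p under 0.05 there were 8 of the 74, 5 higher and 3 lower, against 6.90% of all genes. The median difference was 0.02 log2, against 0.00064 for all genes, and the values ran from -0.19 to 0.37. Groups of arrays did not overlap in 6 genes with amylin higher and in 2 with amylin lower, against 5.49% and 3.81% of all genes.

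Among the higher genes the smallest p-values were those of Syn1, Stxbp5 and Syn3. Syn1 was 0.14 ± 0.05 log2 above vehicle (adjusted p = 0.675, 95% interval 0.04 to 0.25) and Syn3 0.16 ± 0.07 (adjusted p = 0.712), with Syn3 values of 8.56, 8.35 and 8.44 under amylin against 8.38, 8.22 and 8.26. Stxbp5 (tomosyn), which keeps SNAREs from pairing, read 9.80, 9.73 and 9.77 under amylin and 9.63, 9.65 and 9.64 under vehicle. Its amylin values were apart from and above the vehicle values, with a difference of 0.13 ± 0.05 that did not pass (adjusted p = 0.706). For Syn1, Syn3 and Stxbp5 the adjusted p ran from 0.446 to 0.942 over the alternatives.

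The 3 lower genes were Stxbp2, Stx11 and Vamp8. Stxbp2 (Munc18-2), which serves secretion in blood and epithelial cells, read 7.65, 7.61 and 7.44 under amylin against 7.66, 7.84 and 7.75 under vehicle, a difference of -0.18 ± 0.07 (adjusted p = 0.696). Stx11, a syntaxin of immune cells, read 5.55, 5.52 and 5.52 against 5.60, 5.70 and 5.73, a difference of -0.14 ± 0.06 (adjusted p = 0.706). Vamp8 read 5.72, 6.03 and 5.84 against 6.11, 6.07 and 5.99, a difference of -0.19 ± 0.08 (adjusted p = 0.712). Amylin values lay below vehicle values for Stxbp2 and Stx11 and overlapped for Vamp8. The microglial list mean was 7.79 to 8.34 under amylin and 7.96 to 8.59 under vehicle, with 0 of 14 markers called, and its part in these values was not tested.

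For most of the genes called between vehicle and wild type, the interval of the amylin difference lay on both sides of 0. It was -0.14 to 0.18 for Snap25, -0.09 to 0.17 for Syp, -0.22 to 0.31 for Vamp1 and -0.28 to 0.50 for Syt6. It lay on 1 side of 0 for Syn1 and Vamp8 as well as Nsf (0.01 to 0.23) and Syn2 (0.01 to 0.26), but the adjusted p of Nsf and Syn2 was 0.712. These genes were called on the same vehicle arrays, so their choice alone favours an amylin difference toward wild type. Of the 54 other presynaptic genes 0 passed. The endocytosis genes Ap2a2 and Dnm1 were nearest, with 0.15 ± 0.05 and 0.14 ± 0.05 (adjusted p = 0.672 and 0.687).

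Amylin-treated 5xFAD mice were also compared with wild type, a comparison that shares arrays with both others. Of the 74 genes 8 were lower and 2 higher, against 2.86% and 2.35% of all genes. The lower genes were Vamp1 (-0.67 ± 0.12 log2, adjusted p = 0.0118), Syt2 (-0.61 ± 0.14, 0.0312), Syt3 (-0.39 ± 0.07, 0.0103), Cplx1 (-0.33 ± 0.06, 0.0169), Syt13 (-0.33 ± 0.08, 0.0486), Syngr3 (-0.32 ± 0.06, 0.0211), Rab3c (-0.30 ± 0.06, 0.0233) and Nsf (-0.21 ± 0.05, 0.0452). The higher genes were Syt6 (0.93 ± 0.17, adjusted p = 0.0149) and Sv2c (0.62 ± 0.15, 0.0468), the latter with 8.09, 7.97 and 8.37 under amylin, all above wild type. Syn1 (-0.17 ± 0.05, adjusted p = 0.0658) and Syn2 (-0.21 ± 0.06, 0.0587) did not pass here. Against vehicle, the same Syn1 and Syn2 arrays were higher by 0.14 and 0.13 without passing.

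This count was less stable than that of vehicle against wild type. It was 0, 4 and 3 without wild-type replicate 1, 2 and 3, and 5 and 4 without amylin replicate 1 and 3. The share of all genes called in those fits was 2.24%, 3.02%, 2.99%, 4.57% and 2.75%, against 5.21% with all arrays. The count was 0 in the olfactory-adjusted fit, which called 2.08% of all genes and gave 0.16 for Sv2c (adjusted p = 0.662) and 0.41 for Syt6 (0.21). Sv2c passed in 11 of 19 alternatives and Nsf in 6, and 0 of the 10 genes passed in all of them. With all arrays kept, Nsf failed with the quantile normalization repeated (adjusted p = 0.0549), after median centring (0.0668) and in the fit of the 2 groups compared (0.074). Without wild-type replicate 1 the adjusted p of the 10 genes ran from 0.0534 (Syt3) to 0.168 (Syt13). With the dimmer 50% of all genes left out 13 of the 64 vesicle genes were lower and 3 higher, against 7.29% and 5.25% of all remaining genes. Of the other presynaptic genes 3 of 54 fell and 0 rose, against 2.86% and 2.35% of all genes. Those that fell were Svop (-0.27 ± 0.04, adjusted p = 0.00763), Slc17a6 (-1.18 ± 0.23, 0.019) and Napb (-0.43 ± 0.10, 0.0329), an adaptor that brings Nsf to the SNAREs. Slc17a6 failed without wild-type replicate 1 or 2 or amylin replicate 1 or 3 (0.0597 to 0.0928), and Napb without any 1 wild-type replicate, amylin replicate 2 or 3 or vehicle replicate 3 (0.0525 to 0.118). All 11 striatal markers were called higher, and all 8 hippocampal and 11 of 12 thalamic markers lower, in amylin-treated 5xFAD mice against wild type.

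**Figure D4:**
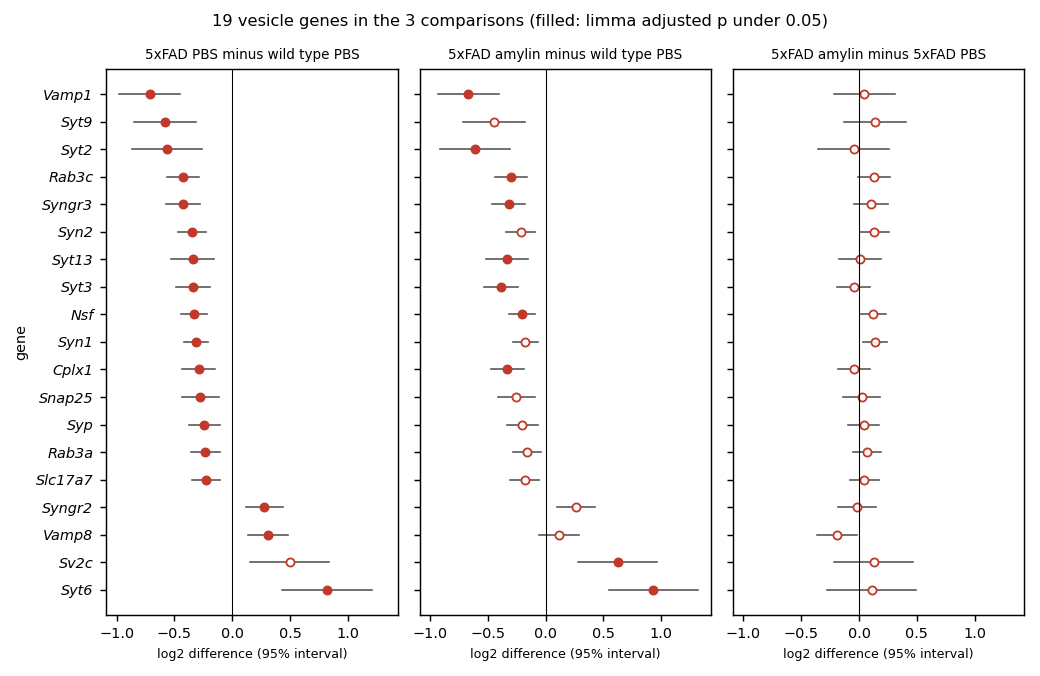
Log2 differences with 95% intervals (x axis) of the 19 genes called against wild type in either 5xFAD group (y axis), in the 3 comparisons, which share arrays. Filled points have an adjusted p under 0.05: 18 for vehicle against wild type, 10 for amylin against wild type and 0 for amylin against vehicle.

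Most genes had a single probe set. For Unc13a, with 3 probe sets, the vehicle differences ran from -0.08 to 0.01, for Unc13c, with 7, from -0.22 to 0.01, and for Stxbp4, with 2, from -0.12 to 0.04. The median log2 value of an array was 5.71 to 5.79, and the median standard error of a difference between groups was 0.07. Differences near that size were not detectable with 3 mice a group, and some well above it did not pass. Among the vesicle genes the smallest difference called between vehicle and wild type was -0.23 ± 0.06 log2 (Slc17a7). Sv2a, with -0.18 ± 0.05, did not pass (limma adjusted p = 0.0682).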

How the data were processed

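The values are the log2 intensities that the authors deposited for 35556 probe sets on 9 arrays, processed by RMA with oligo per the submitters' processing notes. RMA corrects background, equalises quantiles between arrays and summarises probes into 1 value a probe set; versions and the annotation build are not given in the sources used here. Of the probe sets, 21789 name 1 gene; where a gene had several, the one of highest mean was taken, leaving 19938 genes with no filter on signal. RefSeq GRCm38.p6 gave names and promoter windows. The comparisons used limma 3.58.1 (R 4.3.3) on the 9 arrays together, with group means as coefficients, an untrended empirical Bayes prior (6 residual and 3.53 prior degrees of freedom) and Benjamini-Hochberg adjustment over all genes. The labels call the samples biological replicates.

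The fit was tested on simulated data. Genes, gene lists, marker lists, motifs and the rule for named genes were chosen with earlier results of these data known. The rule allowed any of the 74 genes to be named and gave array values for the 10 called genes of smallest p in each direction, the 3 of smallest p where under 3 were called, and certain genes listed by symbol; of other presynaptic genes it took the 4 of smallest p in each comparison. Array values of the other called genes, of Syn3 and of Syt10, and the naming of Synpr, were added after their values were seen. The alternatives tried are listed in the closing section.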

Additional observations from a re-analysis of the deposited data

How the results depend on the processing

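The alternatives were a repeated quantile normalization, median centring, leaving out the lowest 25% or 50% of genes, a trended and robust prior, fits of the 2 groups compared, array weights, the replicate block, the mean of all probe sets, other thresholds, leaving out each array and, chosen after seeing the data, a term for the olfactory bulb marker mean (its correlation with genotype over the 9 arrays was 0.74). Vehicle against wild type gave 18 called genes (8.58% of all genes) and 13 to 22 under the planned settings with all arrays (7.14% to 17.9%). Of these, leaving out the lowest 50% of genes gave 21 of 64. The count was 7 to 19 with an array left out (4.33% to 8.92% of all genes) and 9 with the olfactory bulb term (4.87%). Amylin against wild type gave 10 (5.21% of all genes). It gave 16 of 64 with the lowest 50% of genes left out (12.5% of all genes there) and 16 of 74 at an adjusted p under 0.1 (8.64%). With an array left out it gave 0 to 9 (2.24% to 5.45% of all genes), and with the olfactory bulb term 0 (2.08%). Amylin against vehicle gave 0 throughout (0% to 0.0351% of all genes), and the medians moved by less than the spread between arrays. The replicate numbers were not shown to pair mice: same-numbered deviations correlated at 0.0645 to 0.183 for vehicle and wild type, where 6 of 6 arrays fitted best with their own number, at 0.0997 to 0.13 for amylin and vehicle (4 of 6) and at -0.0556 to 0.141 for amylin and wild type (2 of 6). With the replicate block 13, 0 and 9 genes were called in the same order of comparisons (8.22%, 0% and 5.31% of all genes). Rab3a, Snap25, Syngr2, Syp, Syt2 and Vamp8 lost the call of vehicle against wild type there (adjusted p from 0.0537 to 0.0744). Differences near 0 changed sign: Cplx2 was 0.046 with the quantile normalization repeated, 0.00064 with array weights, 0.0046 with the olfactory bulb term and -0.058 to 0.014 with an array left out. Unc13a was 0.034 with the quantile normalization repeated, 0.002419 after median centring, 0.072 with the olfactory bulb term and -0.062 to 0.052 with an array left out. Rims1 was -0.017 (without vehicle replicate 2) to 0.1661 (without vehicle replicate 1) with an array left out, and Syt10 -0.23 with the olfactory bulb term. The causes were not tested.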
